A study of Mus musculus with 2 samples.

Results

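The genes described here are 10 genes of the hypoxia response, chosen by name for their known function, but with earlier results of these data known. They are Hif1a, Epas1, Pdk1, Vegfa, P4ha1, P4ha2, Ankrd37, Egln3, Bnip3 and Adm, and they are read by 21 probe sets (groups of short probes for the same transcript) of an array with 18193 named genes. The RNA came from liver of C57BL/6J mice aged 2 months, taken 3 days after a tail vein dose of 1000000000 plaque-forming units (PFU, infectious particles) of adenovirus. The control group received the empty vector (Ad-control) and the other group a vector made to overexpress PDK4 (Ad-PDK4), so that mice of both groups received virus. RNA of 4 Ad-control mice and of 3 Ad-PDK4 mice was pooled by group, and each pool was read on 1 array. The spread between mice is therefore not known, no test between the groups is possible, and every difference below describes these 2 pools.

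Hypoxia-inducible factors (HIF) are transcription factors made of an oxygen-sensitive alpha subunit, such as the products of Hif1a and Epas1, and a stable beta subunit. With oxygen present, prolyl hydroxylases of the Egln family mark the alpha subunit, the VHL protein binds the mark and the subunit is degraded, so that most of its control is at the level of protein rather than of transcript. Without that mark, HIF binds short DNA motifs whose core is ACGTG or GCGTG and raises genes of blood vessel growth, glycolysis, matrix and mitophagy. PDK1, which is both a product of a HIF target gene and a paralog of PDK4, phosphorylates pyruvate dehydrogenase and so keeps pyruvate out of the mitochondrial oxidation path. In the liver lobule, oxygen falls from the portal vein to the central vein.

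The promoters of the 4 genes that lay at least 1.5-fold apart between the pools, and that of Bnip3, which did not, are shown so that the HIF core motif can be looked for in them. Each runs 5′ to 3′ on the strand of its gene, from 250 bases before to 50 bases after the start site, as RefSeq gives it on build GRCm38.p6. Capitals mark ACGTG or GCGTG on either strand, so that CACGT and CACGC are the same motifs read on the other strand.
Pdk1 (chr2:71872974-71873273, plus strand): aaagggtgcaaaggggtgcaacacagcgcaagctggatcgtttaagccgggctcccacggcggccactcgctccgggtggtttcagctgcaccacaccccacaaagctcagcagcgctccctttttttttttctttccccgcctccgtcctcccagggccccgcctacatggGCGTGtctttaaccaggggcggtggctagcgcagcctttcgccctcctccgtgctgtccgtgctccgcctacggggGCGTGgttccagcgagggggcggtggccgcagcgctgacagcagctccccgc
Vegfa (chr17:46032328-46032627, minus strand): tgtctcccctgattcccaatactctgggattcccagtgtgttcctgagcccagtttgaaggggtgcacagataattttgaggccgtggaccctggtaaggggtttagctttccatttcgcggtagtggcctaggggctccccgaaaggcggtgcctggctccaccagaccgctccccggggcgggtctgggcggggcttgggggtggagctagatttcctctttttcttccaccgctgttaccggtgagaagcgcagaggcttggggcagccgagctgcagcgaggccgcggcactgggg
P4ha2 (chr11:54100674-54100973, plus strand): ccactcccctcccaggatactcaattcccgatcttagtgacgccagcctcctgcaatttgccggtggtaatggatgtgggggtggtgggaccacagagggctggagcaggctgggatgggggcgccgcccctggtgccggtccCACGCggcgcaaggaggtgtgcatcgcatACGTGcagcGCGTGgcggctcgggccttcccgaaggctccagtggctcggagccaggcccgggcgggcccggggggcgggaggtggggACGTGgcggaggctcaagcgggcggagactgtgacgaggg
Ankrd37 (chr8:45999801-46000100, minus strand): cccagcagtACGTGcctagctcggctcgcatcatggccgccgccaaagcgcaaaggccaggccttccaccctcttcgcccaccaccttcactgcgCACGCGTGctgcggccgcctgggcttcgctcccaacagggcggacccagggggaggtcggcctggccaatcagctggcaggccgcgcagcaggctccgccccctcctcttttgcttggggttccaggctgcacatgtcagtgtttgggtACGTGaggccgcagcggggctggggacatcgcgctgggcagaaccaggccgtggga
Bnip3 (chr7:138909457-138909756, minus strand): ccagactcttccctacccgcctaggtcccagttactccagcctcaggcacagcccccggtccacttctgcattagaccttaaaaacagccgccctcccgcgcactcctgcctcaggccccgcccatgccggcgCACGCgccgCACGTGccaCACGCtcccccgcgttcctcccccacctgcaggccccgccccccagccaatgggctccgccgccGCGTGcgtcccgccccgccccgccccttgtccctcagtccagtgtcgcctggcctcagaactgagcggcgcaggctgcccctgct

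The windows differ in how many cores they hold. The Pdk1 window has 2 GCGTG, which begin at positions -78 and -2 from the start site, where -1 is the base before the start, and the window of another RefSeq start of Pdk1 (40.3% G and C) has 0 of either core. The Ankrd37 window has 2 of each core, with an ACGTG at -6. The P4ha2 window also has 2 of each, and the Bnip3 window holds 3 GCGTG and a CACGTG, a palindrome that counts as ACGTG on both strands. Neither core is in these letters of the Vegfa window, and another RefSeq start of Vegfa has 1 of each within its window. In all, 9 members had a window (11 windows), all 9 held ACGTG or GCGTG in at least 1 window, and 7 held ACGTG. Both counts take in Vegfa only through the window of its other start (chr17:46025114-46025413), which lies downstream of the one shown. That window is therefore within the span of the gene and not ahead of it, and whether its letters are coding sequence was not checked. Of 8463 genes measured on both arrays that have a window, 67.5% held either core in at least 1 window and 29.8% held ACGTG. Over all 32851 windows of 300 bases, whatever their gene, the shares were 43.8% and 19.6%. Both cores contain a CG pair, and the member windows were rich in G and C (median 66.0%, from 40.3% to 71.7%, against a median of 60.7% in the windows of measured genes). A match is only a match of letters. The members were chosen as known HIF targets or, for Hif1a and Epas1, as HIF subunit genes, and Hif1a is in both member counts.

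All 10 genes had a signal above the lower limit used on both arrays. That limit, the floor, is the median signal of each array, 93.4 for Ad-control and 99.9 for Ad-PDK4. Differences are given as log2 of the Ad-PDK4 signal minus log2 of the Ad-control signal, centred on the median of the probe sets above the floor, and a gene is represented by its brightest probe set. Of the 10 genes, 2 were at least 1.5-fold higher in the Ad-PDK4 pool (P4ha2 and Ankrd37), 2 were at least 1.5-fold lower (Vegfa and Pdk1) and 6 lay within 1.5-fold. Over the 10389 genes measured on both arrays, 9.21% were at least 1.5-fold higher and 5.20% lower, so that 14.4% lay outside the range that 4 of the 10 members lay outside. With 10 genes and 1 array per group, no test is attached to that contrast. The median difference of the members was -0.11 and that of all measured genes 0.015. Fewer cells of a type and less RNA per cell cannot be told apart in a pool of whole liver.

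**Figure D1:**
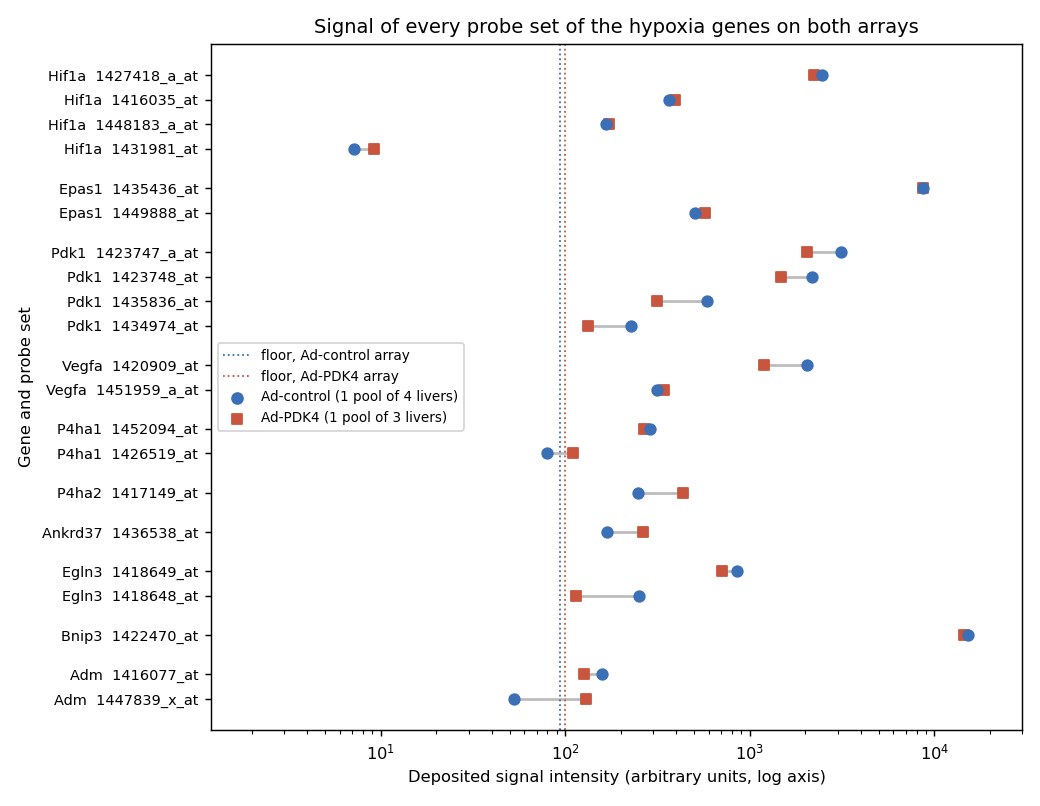
Deposited signal intensity (log axis) of each of the 21 probe sets of the 10 genes on the Ad-control array (circles) and the Ad-PDK4 array (squares), with the floor of each array as a dotted line. The 4 probe sets of Pdk1 all lie to the left on the Ad-PDK4 array, while both arrays nearly coincide for Epas1 and Bnip3.

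The transcripts of the oxygen-sensitive subunits differed little between the pools after centring. Hif1a, which encodes HIF-1 alpha, gave 2445.9 for the Ad-control pool and 2223.7 for the Ad-PDK4 pool (probe set 1427418_a_at), a log2 difference of -0.12. Its next probe sets gave 365.4 and 394.2 (1416035_at) and 165.8 and 172.3 (1448183_a_at), differences of 0.12 and 0.070 in the other direction. The fourth, 1431981_at, was below the floor on both arrays. Epas1, the gene of HIF-2 alpha, read 8722.8 and 8712.5 on 1435436_at, a log2 difference of 0.013. Its dimmer probe set 1449888_at read 505.6 and 568.3, a difference of 0.18. For both genes every measured probe set stayed within 1.14-fold. The disagreement between probe sets of a gene, pooled over the 4326 genes that had several measured probe sets, has an SD of 0.35 on the log2 scale, and all of these differences are smaller than that.

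Pdk1 was lower in the Ad-PDK4 pool on each of its probe sets. The brightest, 1423747_a_at, read 3121.7 in the Ad-control pool against 2034.2 in the Ad-PDK4 pool, and 1423748_at read 2161.9 and 1476.8. The dimmer pair read 588.3 and 314.9 (1435836_at) and 225.8 and 132.1 (1434974_at). The log2 differences were -0.60, -0.54, -0.89 and -0.76 in that order, with an SD of 0.16 between them. Among 685 genes with 4 or more measured probe sets, 14.6% had every probe set below 0. Among the brightest 20% of genes, to which Pdk1 belongs, 2.84% were at least 1.5-fold lower, and the SD of the difference was 0.34. The size of the Pdk1 difference, 1.52-fold, sits at the edge of the 1.5-fold rule. It was -0.58 with loess centring and -0.54 when the probe set whose ID ends in _a_at was left out, both just short of 1.5-fold.

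The kinase family of Pdk1 had no other member past 1.5-fold. Pdk4, the gene in the vector, read 234.4 and 177.0 on its only probe set, a log2 difference of -0.39, so that the array does not show the overexpression the label names. Which part of the transcript that probe set reads, and so whether it can see the vector's copy, is not known here, and the pools are called by their labels throughout. Pdk2, an isoform abundant in liver, read 1042.2 and 875.2 (-0.24), and Pdk3 had no signal above either floor. Of 9 genes of the complex and its other kinases and phosphatases measured on both arrays, 0 were 1.5-fold apart, against 14.4% of measured genes. The median of this list was -0.056. The phosphatase gene Pdp2 (0.057) and the acetyltransferase subunit gene Dlat (0.041) were its highest, and Pdp1 was below the floor on the Ad-PDK4 array (at least 1.16-fold lower).

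Vegfa, the gene of the growth factor that drives new blood vessels, gave a different answer on each of its probe sets. On 1420909_at the signal was 2030.8 in the Ad-control pool and 1196.6 in the Ad-PDK4 pool, a log2 difference of -0.75 or 1.68-fold lower. On 1451959_a_at, whose ID marks probes shared by alternative transcripts of a gene, it was 315.1 and 341.8, a difference of 0.13. The gap of 0.88 between them was matched or exceeded by 8.55% of the 2596 genes with exactly 2 measured probe sets. Of the 5 members with several measured probe sets, 2 (Hif1a and Vegfa) had them on both sides of 0, against 50.6% of all such genes. The median of the Vegfa pair was -0.31, within 1.5-fold, so the call for Vegfa rests on the brighter probe set. In the 20% of genes to which Vegfa belongs by brightness, 3.22% were at least 1.5-fold lower.

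Egln3, the oxygen-dependent prolyl hydroxylase that is itself raised by HIF, was lower on both probe sets but by unequal amounts. The brighter, 1418649_at, read 856.2 and 705.5 (-0.26). The dimmer, 1418648_at, read 251.0 and 114.2 (-1.12), a 2.18-fold difference that ended close to the floor of the Ad-PDK4 array. The gap of 0.86 was matched or exceeded by 9.32% of genes with 2 measured probe sets. With the median of the probe sets Egln3 stood at -0.69, past 1.5-fold.

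**Figure D2:**
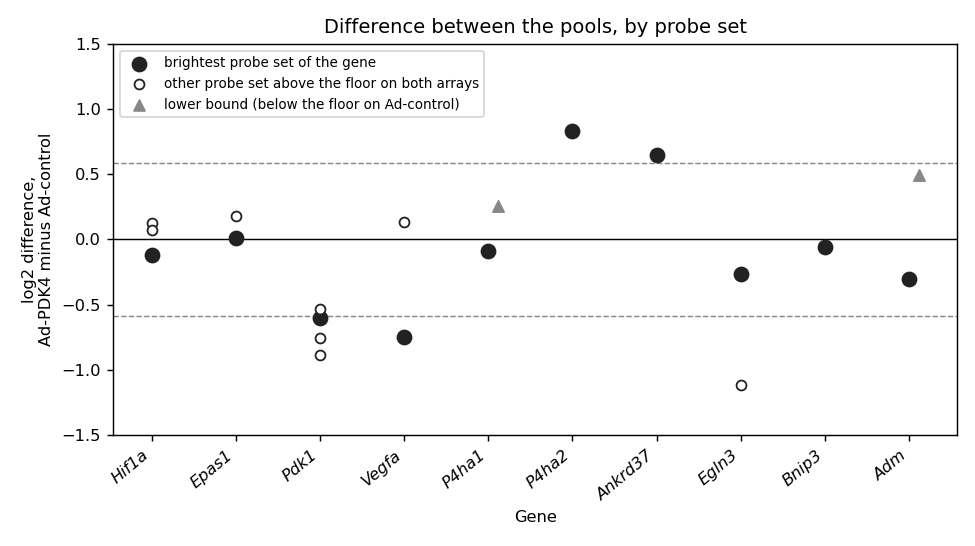
Log2 difference (Ad-PDK4 minus Ad-control) of each probe set by gene, with the brightest probe set filled, the other measured ones open and lower bounds as triangles. Dashed lines mark 1.5-fold. Pdk1 has all 4 points below 0, Vegfa has points on both sides, and P4ha2 and Ankrd37 rest on 1 point each.

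P4ha2 and Ankrd37 were the members that were higher in the Ad-PDK4 pool. P4ha2 encodes a catalytic subunit of collagen prolyl 4-hydroxylase, which stabilises collagen. It read 248.0 and 436.5 on its only probe set 1417149_at, a log2 difference of 0.83 or 1.78-fold. Ankrd37, a small ankyrin repeat protein gene, read 169.3 and 263.0 on 1436538_at, a difference of 0.65 or 1.57-fold. Both are dim, at 2.66 and 1.81 times the floor on the Ad-control array. Dim genes spread more widely: when genes were cut into 5 equal groups by brightness, 13.2% of the group of P4ha2 and 17.5% of the dimmest group, that of Ankrd37, were at least 1.5-fold higher. The difference of P4ha2 lay above the 90th percentile of its group (0.68), and that of Ankrd37 lay below that of its own (0.80). Ankrd37 fell short of 1.5-fold with a pseudocount of 32 in place of the floor (0.54) and after quantile normalization (0.58), and with a floor at the 70th percentile it was not measured on either array.

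The paralog of P4ha2 lay within 1.5-fold. P4ha1 read 287.5 and 267.9 on 1452094_at, a log2 difference of -0.087. Its other probe set 1426519_at was below the floor on the Ad-control array (79.5) and just above it on the Ad-PDK4 array (110.4), which gives at least 1.19-fold higher. The 2 genes encode alternative catalytic subunits of the same enzyme, and the brightest probe sets of the pair were on opposite sides of 0. The enzyme's shared beta subunit, P4hb, read 21659.2 and 17169.0, a difference of -0.32. Another alpha subunit gene, P4ha3, was below the floor on both arrays. Of 10 other genes of collagen hydroxylation and folding, 6 were measured on both arrays. Their median was -0.36, and 0 of the 6 were 1.5-fold apart, against 14.4% of measured genes. P3h1 (-0.44) and Serpinh1 (-0.43, with 0.38 on its other probe set) were the lowest, and Plod3 (-0.032) and Crtap (0.24) the highest.

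Bnip3 and Adm stayed within 1.5-fold. Bnip3, which encodes a mitochondrial receptor for mitophagy, read 15240.2 and 14467.0 on 1422470_at, a log2 difference of -0.061. Adm encodes adrenomedullin, a vasodilator peptide, and lay close to the floor. Its probe set 1416077_at read 158.6 and 127.0 (-0.31). The other, 1447839_x_at, of a kind that can also match other transcripts, read 52.8 and 129.9, at least 1.40-fold higher. The probe sets of Adm therefore point in opposite directions at signals where the array resolves little.

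**Figure D3:**
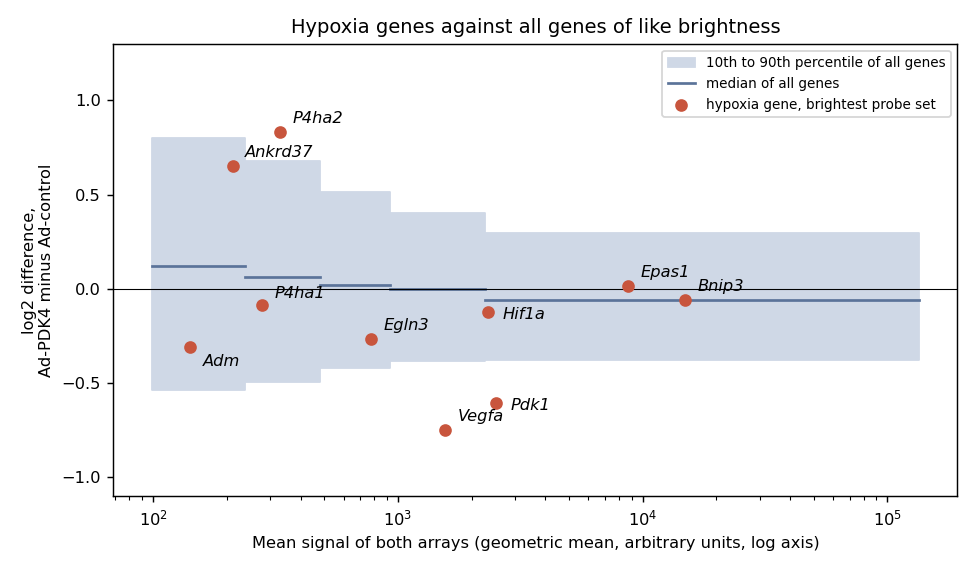
Log2 difference (Ad-PDK4 minus Ad-control) of the 10 genes against their mean signal (log axis), over the band from the 10th to the 90th percentile and the median of all genes in each of 5 brightness groups. Pdk1 and Vegfa lie below the band at -0.60 and -0.75, P4ha2 lies above it at 0.83, and the other genes lie within it.

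In relation to the spread of equally bright genes, 3 members stood outside the middle 80% of their brightness group: Pdk1 and Vegfa below it and P4ha2 above it. The lower edges for Pdk1 and Vegfa were both -0.38. The band is a description of these 2 arrays and holds real differences as well as error.

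The rest of the oxygen-sensing machinery mostly differed little between the pools after centring, on its brightest probe sets. Of 8 other genes of HIF subunits, hydroxylases and cofactors measured on both arrays, 1 was at least 1.5-fold higher and 1 was at least 1.5-fold lower. Their median was 0.10. For this list and those below, the shares over all measured genes were 9.21% higher and 5.20% lower. Vhl, which encodes the protein that targets hydroxylated HIF for degradation, read 217.1 and 374.2 (0.80). It falls in the brightness group of P4ha2, where 13.2% of genes were at least 1.5-fold higher. Hif1an, the asparagine hydroxylase that blocks HIF activity, read 467.6 and 255.5 (-0.86), but its other measured probe set gave 0.14. Arnt, the beta subunit gene, was the next highest at 0.17, with 4 probe sets from 0.065 to 0.27, and Egln2 the next lowest at -0.085. The cofactor gene Crebbp, counted as within 1.5-fold at 0.087, had probe sets from -0.32 to 1.05. Hif3a was below the floor on the Ad-control array and at least 1.12-fold higher, and Arnt2 was below it on both.

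Genes of HIF-linked glycolysis lay on both sides of 0. Of 13 such genes measured on both arrays, 0 were at least 1.5-fold higher, 1 was lower and 12 lay within, with a median of 0.018. Hk1, a hexokinase gene dim in these livers, was the lower one (170.7 and 112.6, -0.59), followed by the phosphofructokinase gene Pfkp (-0.51). Pkm (0.39) and Aldoa (0.17, with other probe sets down to -0.41), genes of pyruvate kinase and aldolase, were the highest. The glucose transporter gene Slc2a3 was below the floor on the Ad-control array (at least 1.44-fold higher) and the kinase gene Pfkfb4 below it on the Ad-PDK4 array (at least 1.38-fold lower).

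Other HIF targets were spread on both sides of 0. Of 23 measured on both arrays, 5 were at least 1.5-fold higher, 1 was lower and 17 lay within, with a median of -0.061. Over all measured genes, the shares were 9.21% higher and 5.20% lower. The higher genes were Vldlr (a lipoprotein receptor, 0.92, with -0.26 on another probe set), Cygb (cytoglobin, 0.90), Tfrc (the transferrin receptor, 0.84), Stc2 (a secreted glycoprotein, 0.78, with 0.15 on its other probe set) and Kdm4b (a histone demethylase, 0.59). The signals of Tfrc were 1348.3 and 2389.5, and Kdm4b lay only just past 1.5-fold. Cygb, Stc2 and Kdm4b belong to the dimmest brightness group, where 17.5% of genes were at least 1.5-fold higher. Vldlr and Tfrc are brighter, in groups where 7.94% and 4.52% of genes were at least 1.5-fold higher. Igfbp3, which binds insulin-like growth factors, read 593.8 and 384.5 (-0.61, and -0.55 on its other probe set), and the clock-linked repressor gene Bhlhe40 was next (-0.41). Some genes counted as within 1.5-fold had another probe set past it: Rora (down to -1.85), Ero1a (-0.77), Narf (-0.68) and Slc11a2 (0.88). Below the floor on both arrays were 9 genes, Car12, Bhlhe41, Lox, Plod2, Gys1, Ndufa4l2, Cox4i2, Nos2 and Edn1. Car9, a carbonic anhydrase gene used as a marker of hypoxia, was below it on the Ad-PDK4 array only, at least 1.29-fold lower, and Apln, which encodes the peptide apelin, on the Ad-control array only, at least 1.46-fold higher.

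On their brightest probe sets, receptors and relatives of the products of Vegfa and Adm lay within 1.5-fold in 11 of 11 cases measured on both arrays. Their median was 0.019. Vegfc (0.062) had another probe set past 1.5-fold lower (-0.97). Calcrl, whose product is a subunit of adrenomedullin receptors, read 812.0 and 559.8 (-0.52). Ramp2, the gene of its partner in such a receptor, read 532.5 and 534.2 (0.019). Ramp1, the gene of a partner in a receptor for another peptide, read 250.6 and 187.6 (-0.40). Nrp2 (0.33, with -0.38 on another probe set) and Vegfb (0.16) were the highest. Pgf, Adm2 and Ramp3 were below the floor on both arrays. Among 11 measured genes of mitophagy and autophagy related to Bnip3, 1 was 1.5-fold lower, 0 were higher and the median was -0.18. The lower one was Bcl2l1, a survival gene (-0.77, and -0.33 on its other probe set), followed by Becn1 (-0.54, with probe sets up to 1.37), and Map1lc3b (0.11) and Ulk1 (0.31) were the highest. Bcl2 was below the floor on the Ad-control array, at least 1.12-fold higher.

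**Figure D4:**
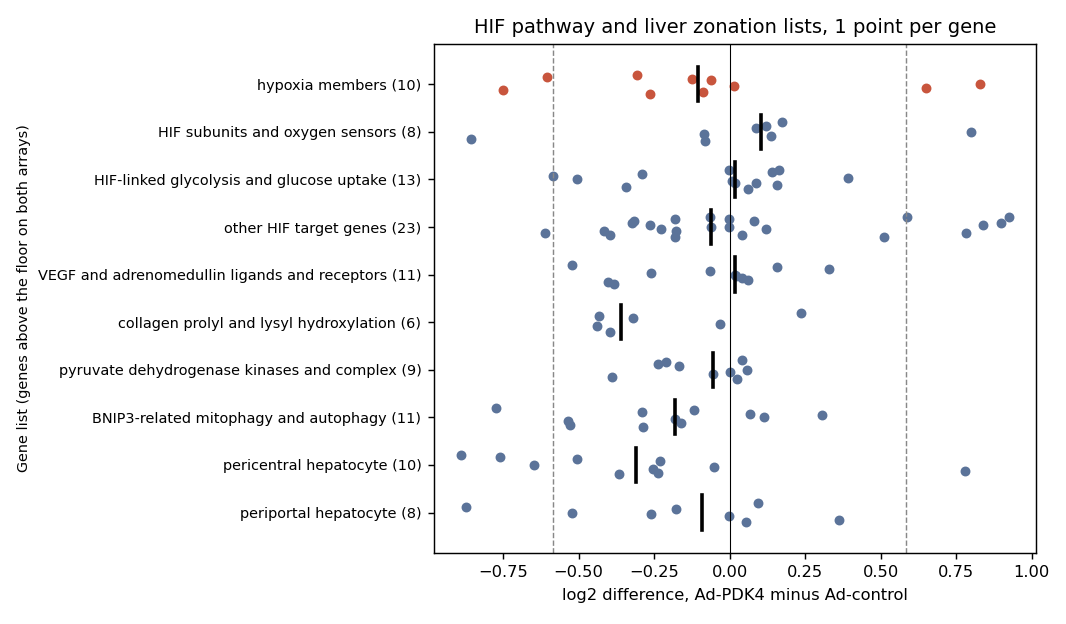
Log2 difference (Ad-PDK4 minus Ad-control) of each gene measured on both arrays in the hypoxia genes, 7 related lists and both liver zonation lists, 1 point per gene. Black bars are list medians and dashed lines mark 1.5-fold. The hypoxia genes have 2 points beyond each dashed line and a median of -0.11. The pericentral list has a median of -0.31 and the periportal list a median of -0.090.

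Because oxygen is lowest around the central vein, marker genes of both zones are given. Of 10 pericentral genes, 3 were at least 1.5-fold lower in the Ad-PDK4 pool and 1 was higher, with a median of -0.31 and a summed signal of 224562 in the Ad-control pool against 183460 in the Ad-PDK4 pool. Axin2 (-0.89), Slc1a2 (-0.76, with 0.43 on another probe set) and Rnf43 (-0.65) were the lower ones, and Tbx3 the higher (0.78, with -0.51 on its other probe set). Glul, glutamine synthetase of the innermost cells, read 22921.7 and 17603.3 (-0.37). Of 8 periportal genes 1 was lower (Hal, -0.87) and 0 were higher, with a median of -0.090. Their summed signal was lower in the Ad-PDK4 pool as well, 161561 in the Ad-control pool against 140418. Over all measured genes, 9.21% were at least 1.5-fold higher and 5.20% lower. The part of zonation in the values of Pdk1 and Vegfa was not tested.

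Transcripts typical of other tissues differed between the pools. All 10 measured exocrine pancreas genes were 5.55-fold to 12.8-fold higher in the Ad-PDK4 pool, with a summed signal of 9636.8 and 77809.0, and 7 of 8 measured skeletal muscle genes were at least 1.5-fold lower (median -0.88, summed signal 4891.7 and 2616.7; Actn3 was below both floors). Of the hepatocyte genes that define the labelled tissue, 9 of 9 were measured and within 1.5-fold (median -0.072, from -0.34 to 0.079). Median differences were -0.067 for 10 endothelial genes (-0.68 to 0.71) and -0.10 for 10 stellate cell genes (-0.39 to 0.72). For 9 Kupffer cell and macrophage genes the median was -0.076 (-1.19 to 0.37). Of these, Clec4f (-1.13) and Vsig4 (-1.19) were lower, as was Marco (at least 1.40-fold), below the floor on the Ad-PDK4 array. Cd68 (0.37), Adgre1 (0.21), C1qa (0.12) and Cd5l (0.10) lay above 0. Few markers of other cells were measured on both arrays, and for several lists the median moved once genes above the floor on 1 array only were counted at their bound. It was 0.64 for 4 neutrophil genes, of which Ngp (0.81), S100a8 (0.66) and S100a9 (0.61) lay above 0 and Elane (-0.22) below. With Csf3r (201.4 and 41.3, at least 2.00-fold lower) and Mpo (at least 1.28-fold lower) the neutrophil median was 0.20. The summed signal over the neutrophil list was 1079.9 and 1126.8. For 3 B cell genes the median was 0.11 and turned to -0.18 with Ms4a1 (at least 1.43-fold lower). For 2 fat genes it was 0.31, and 0.50 with Cidec (73.1 and 236.8, at least 2.56-fold higher). It was 0.18 for 4 T and NK cell genes (0.22 with Cd3d, at least 1.17-fold higher), -0.33 for 2 erythroid genes and -0.52 for 1 bile duct gene (-0.28 with Krt19 and Cldn4, at least 1.22-fold and 1.16-fold lower). Defining markers of these cells without signal above either floor were Cxcr2, Ltf and Camp of neutrophils, Cd3e, Cd4 and Gzmb of T and NK cells, Cd79a of B cells, Lep of fat, Hba-a1, Epb42, Slc4a1 and Rhag of erythroid cells, and Krt7, Sox9 and Cftr of bile duct. Hba-a1 was read only on probe sets with 1 gene symbol, and Hbb-b1 matched none. The erythroid gene Alas2 read 1970.3 and 1449.2. Absence of haemoglobin transcripts can therefore not be read from that list. The part of these other tissues and cells in the values of the hypoxia genes was not tested.

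Every direction given is relative to the other transcripts on the array. The spiked poly-A control transcripts, for which no amounts are known here, had a median log2 difference of -0.57 over 12 probe sets above the floor. The hybridization controls, a separate set of spiked transcripts, also lay below 0 but by less, with a median of -0.35 over 9 probe sets. When differences were centred on the poly-A controls instead, the whole array moved up, and 5227 genes were at least 1.5-fold higher and 38 lower, against 957 and 540. On that scale Pdk1 stood at -0.029 and Vegfa at -0.17, P4ha2 at 1.40 and Ankrd37 at 1.22, Epas1 stood just past 1.5-fold higher at 0.59, and the sign turned for Egln3 (0.31), Adm (0.27), Hif1a (0.45), P4ha1 (0.49) and Bnip3 (0.51). This centring adds the same amount to every gene, so it leaves the differences between members as they were.

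**Figure D5:**
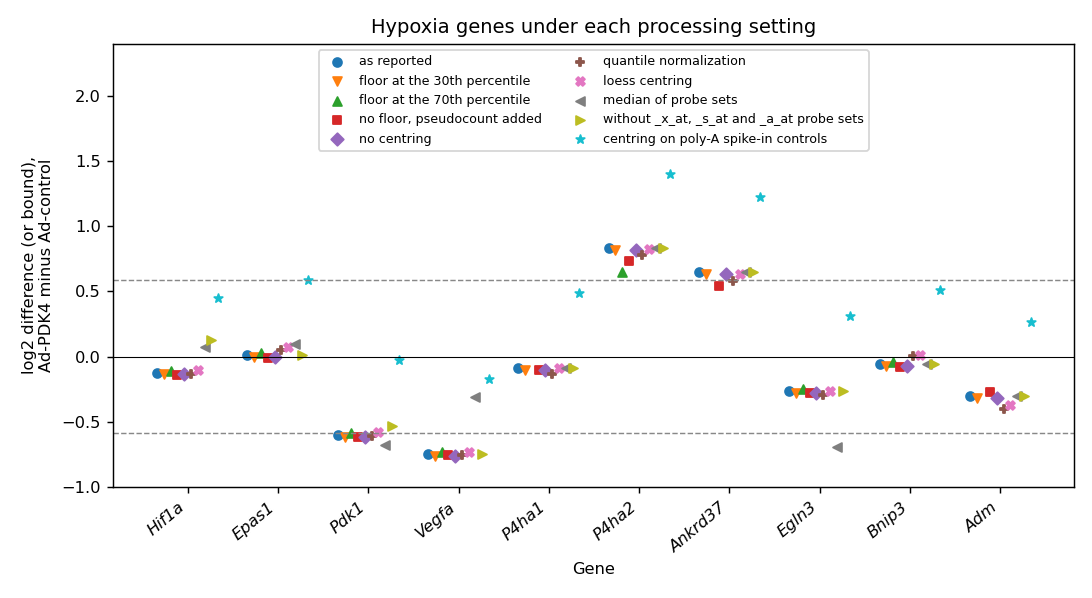
Log2 difference (Ad-PDK4 minus Ad-control, or its bound) of the 10 genes as reported and under 9 alternative settings, with dashed lines at 1.5-fold. P4ha2 stays above the upper line in every setting, from 0.65 to 1.40, though settings that only change the choice of probe sets cannot move it. Centring on the poly-A spike-in controls (stars) lifts all genes.

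Across the settings, P4ha2 was at least 1.5-fold higher in each of the 9 alternatives (0.65, a bound with the stricter floor, to 1.40), and Ankrd37 in 6 of the 8 that gave it a value. Some of these outcomes were fixed in advance. Each of these genes has 1 probe set, ending in _at, so settings that only change the choice of probe sets return the same value. Centring on the poly-A controls raises every gene and could not bring them down. Pdk1 was below 0 in all 9, at least 1.5-fold lower in 6, and Vegfa below 0 in all 9 and at least 1.5-fold lower in 7. Leaving out the _x_at, _s_at and _a_at probe sets could not move Vegfa, since its brightest probe set stays in. The signs of Hif1a and Bnip3 were kept in 6 of 9 alternatives each and that of Epas1 in 6 of 9, so no direction is given for these genes.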

How the data were processed

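The deposited table holds 1 linear signal intensity for each of 45101 probe sets on 2 Affymetrix arrays, each of 1 pool of 10 ug RNA per the labels. How probes were summarised and scaled is not stated in any label or header; the mean without the highest and lowest 2% is 500.0 on both arrays. Probe sets were named through GEO's platform annotation: 34945 had 1 gene symbol, 932 had several and 9160 had none, beside 64 controls; the latter 3 kinds were not named. Signals were put on the log2 scale, with a floor at the 50th percentile of each array, and the difference was centred on the 20151 probe sets above both floors (a shift of -0.015). A gene under 1 floor has only a bound against that floor. Calculations used Python 3.11.15, pandas 2.3.3, numpy 2.4.6 and statsmodels 0.14.6 (loess), and were tested on simulated data. The number of arrays limits the precision.

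The members and all gene lists were chosen with earlier results of these data known, so a count over a list is no independent support. The text names all 10 members with every probe set, the other Pdk genes, and from each pathway list the 2 highest and 2 lowest genes and those at least 1.5-fold apart. Other genes in the text (P4hb, Glul, Tfrc signals, Clec4f, Vsig4 and the genes below 1 or both floors) were added after their values were seen. The same holds for the other named Kupffer cell, neutrophil and erythroid genes, and for Vegfc, Ramp2, Crebbp, Rora, Ero1a, Narf and Slc11a2. Of 247 gene names in the lists, 227 matched a probe set with 1 symbol; the others are not analysed here. In all, 8 alternatives were planned (floor at the 30th or 70th percentile, a pseudocount of 32 in place of the floor, no centring, quantile or loess centring, the median of probe sets, and no _x_at, _s_at or _a_at probe sets), and centring on poly-A controls was added after seeing the data. No test between groups was possible, with 1 array each.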

Additional observations from a re-analysis of the deposited data

How the results depend on the processing

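No paired analysis was possible because each group is 1 array, and for the same reason no replicate could be left out. A value is taken to move when it shifts by more than the SD between probe sets of a gene (0.35), and a count when it changes by more than 1.5 times; the cause of each change below was not tested unless the setting itself fixes it. Of the 10 members, 2 were at least 1.5-fold higher, but 1 with the floor at the 70th percentile, with the pseudocount and after quantile normalization, and 3 with centring on the poly-A controls, where Epas1 joined them (0.59). The count of 2 lower was 1 with loess centring, 1 without the _x_at, _s_at and _a_at probe sets and 0 with centring on the poly-A controls. With the median of probe sets it was 2 again, then Pdk1 (-0.68) and Egln3 (-0.69), with Vegfa at -0.31. Counts over all genes differed with the floor: 957 higher and 540 lower became 1730 and 1055 with a floor at the 30th percentile, and 390 and 243 with the stricter floor (70th). They were 2758 and 1997 with the pseudocount of 32, a setting that also removes the floor, so the parts of the 2 changes cannot be told apart. Centring on the poly-A controls gave 5227 and 38. It moved every list median up, to 0.47 for the members, 0.68 for HIF subunits and oxygen sensors, 0.59 for glycolysis, 0.51 for other HIF targets, 0.59 for VEGF and adrenomedullin genes, 0.22 for collagen hydroxylation, 0.52 for the pyruvate dehydrogenase complex and 0.39 for mitophagy. Under the other 8 alternatives these medians moved by less than 0.35. Signals near the floor, as for Adm and Ankrd37, limit what can be read.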
